A study of Mus musculus with 8 samples.

Results

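The respiratory chain and ATP synthase genes were read in TNFR2+ and TNFR2- Tregs, the regulatory T cells that do or do not carry TNF receptor 2 on their surface. Members were every gene whose symbol begins with Nduf followed by a, b, c, s or v, with Uqcr, with Cox and a digit of the subunit series, or with Atp5, the succinate dehydrogenase genes *Sdha* to *Sdhd*, and the mitochondrial genes for protein subunits. The rule found 101 of the 20172 genes of the table, 88 of them in the nuclear genome and 13 in the mitochondrial genome. The nuclear rows comprise 85 protein genes, of which 77 encode subunits and 8 encode complex I assembly factors, 2 pseudogenes (*Ndufa11b* and *Ndufb4c*), and *Atp5s*, which encodes no subunit. With the genes of the mitochondrial genome, 97 of the protein genes reached a mean of 10 normalized counts over the 8 libraries and were tested, and *Cox6b2* did not.

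Both populations were sorted from spleens of *Foxp3* YFP-cre mice, which carry a Cre recombinase fused to yellow fluorescent protein under the control of *Foxp3*, so that the control population shares the allele. The series' design calls the mice female, whereas the study's methods give both sexes, at 8 to 12 weeks, and no treatment stands in the labels. Each population had 4 libraries of stranded total RNA, numbered replicates 1 to 4. The study gives an n for this comparison directly after naming the mice, and does not say whether it counts mice or libraries. Neither the study nor the labels tie a library to a mouse, so the p-values measure the spread between these libraries. Whether both populations came from the same mice, which would pair the samples, is not stated either.

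Estimated depths lay between 9100000 and 12110000 reads a library. *Tnfrsf1b*, which encodes TNFR2, stood at 3148, 1839.8, 2631 and 2383 normalized counts in TNFR2+ Tregs and 1266, 1563, 1177 and 1277 in TNFR2- Tregs, with no overlap. The 6 Treg markers were all present, and *Foxp3* lay at 2812 to 3313 in TNFR2+ and 3292 to 4033 in TNFR2- libraries. *Ctla4*, *Ikzf2* and *Cd3e* were higher in TNFR2+ Tregs, by 0.89, 0.95 and 0.51 on the log2 scale (adjusted p = 0.0012, 0.0145 and 0.00919 in limma). *Cd4* was at 0.28 (adjusted p = 0.192), *Il2ra* at -0.34 (adjusted p = 0.0860) and *Foxp3* at -0.23 (adjusted p = 0.232). The 8 cycling cell markers, among them *Mki67* and *Top2a*, summed to 4337 to 8035 normalized counts in the TNFR2+ population but 641 to 1728 in the other. The B cell markers in the table (8 of 9) summed to 3929 to 6029 and to 1758 to 3001, mostly from *Ighm*, which rose by 1.27 on the log2 scale (adjusted p = 0.000745 in limma). Cd22 lay at 273 to 350 normalized counts in the TNFR2+ libraries and 54.7 to 223 in the others, a log2 difference of 1.20 (adjusted p = 0.0612). Over all 8 libraries Ms4a1 lay at 19.6 to 99.4, Igkc at 16.2 to 199 and Cd79b at 2.25 to 64.6, while *Pax5* did not exceed 41.5, *Cd79a* did not exceed 6.10 and *Blk* did not exceed 3.41. Myeloid markers (5 of 11) summed to 175 to 232 and to 129 to 193, and cytotoxic lymphocyte markers (5 of 8) to 109.7 to 196 and 48.5 to 132. Of the cytotoxic markers *Nkg7* lay at 49.2 to 92.3 and 2.03 to 18.4, a log2 difference of 3.19 (adjusted p = 0.00927 in limma). *Cd8b1* was at 0.04 (adjusted p = 0.976) and *Prf1* at -1.09 (adjusted p = 0.572). Among erythroid markers (1 of 8) Alas2 did not exceed 12.1, and the platelet marker Itga2b (1 of 5) lay at 12.2 to 221 and 31.2 to 178. Of the sex genes (4 of 6 in the table), *Xist* lay between 10228 and 18154 in all 8 libraries. The Y-linked *Kdm5d* and *Uty* were also present in all of them, at 122 to 257 and 72.2 to 212. The Y-linked *Ddx3y* and *Eif2s3y* were not in the table, so these genes do not settle the sex of the mice. How far any of these moved the respiratory genes was not tested, and in sorted bulk samples more RNA per cell and more cells that hold it cannot be told apart.

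The respiratory chain passes electrons from NADH through complex I, or from succinate through complex II, to ubiquinone, then through complex III and cytochrome c to complex IV, where oxygen is reduced. Complexes I, III and IV pump protons across the inner membrane, and complex V, the ATP synthase, uses their return to make ATP. Complexes I, III, IV and V are assembled from subunits of both genomes, whereas all subunits of complex II are nuclear. Regulatory T cells are known for a marked reliance on oxidative metabolism.

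The nuclear and the mitochondrial members stood on opposite sides of 0. Of the 84 nuclear genes tested, 75 (89.3%) had a log2 fold change above 0 for TNFR2+ against TNFR2- Tregs, where 49.3% of all 13990 genes tested did, and their median was 0.36, against -0.01 over all genes. Of the 13 mitochondrial genes, 12 (92.3%) had a log2 fold change below 0, where 50.7% of all genes did, and their median was -0.28. Under the other scalings and length centring these counts were 69 to 78 nuclear genes above 0 and 10 to 13 mitochondrial genes below 0. No member of either genome passed an adjusted p of 0.05 in limma, which 7.91% of all genes did, 4.52% higher and 3.39% lower. With 0.05 set on the unadjusted p, 13 nuclear genes (15.5%) passed above 0 and 0 below, against 12.3% and 10.7% of all genes, and 2 mitochondrial genes (15.4%) were lower. The values of 8 nuclear genes (9.52%) did not overlap between the groups and were higher in TNFR2+ Tregs, against 8.08% of all genes, and 0 were lower, against 7.29%. On the higher side these shares of single nuclear genes lay near those of all genes, and on the lower side they were 0. Of all protein-coding genes, 14.2% passed the unadjusted p above 0 and 10.8% below, and 9.47% were higher without overlap. Of those under 1 kb these shares were 16.4%, 7.31% and 11.4%. No nuclear gene was called in either direction. Genes are not independent replicates, and transcript length moved with the sign: of protein-coding genes under 1 kb, 59.8% lay above 0 with a median of 0.12, against 51.1% and 0.01 of longer ones. Within the members the median was 0.37 for the 60 nuclear genes under 1 kb and 0.31 for the 24 longer ones. These lengths are medians over the annotated transcripts of a gene and need not be those of the transcripts expressed. They put *Ndufs1* (651 bases) and *Uqcrc1* (533 bases) among the short genes and *Ndufb2* (2413 bases) among the longer ones, so the split is a rough one.

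**Figure D1:**
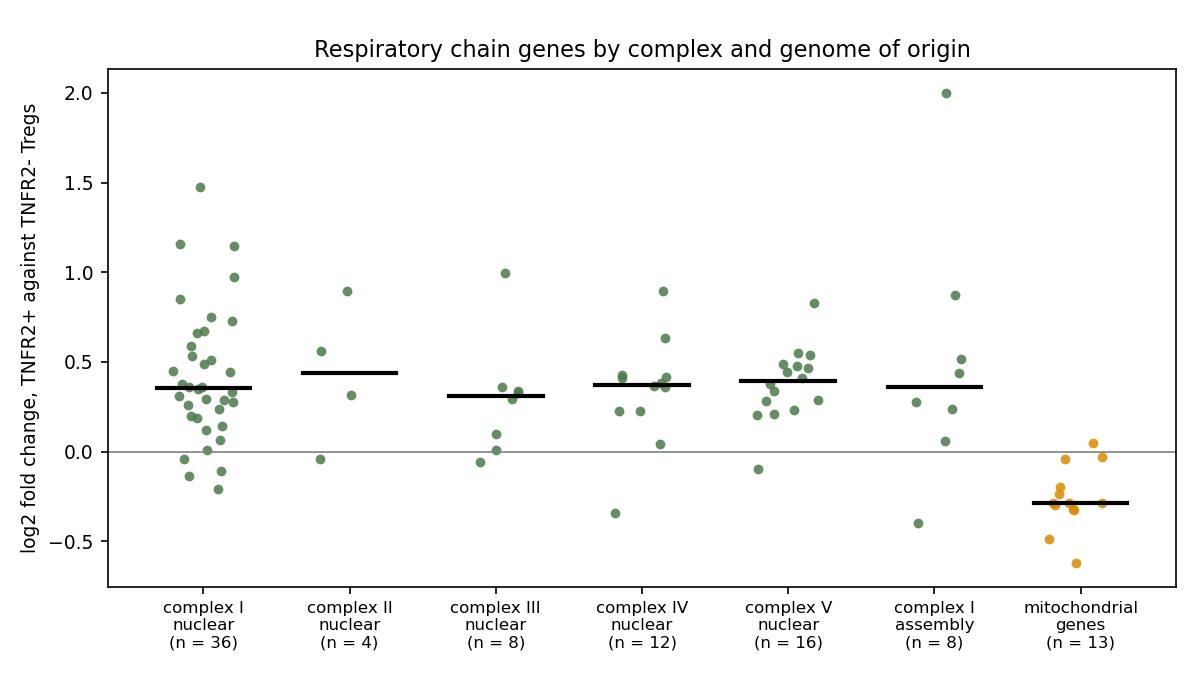
Log2 fold change on the log2(normalized count + 1) scale, TNFR2+ against TNFR2- Tregs, for each tested member (points) by complex and genome of origin, with the median as a black line. Medians of the nuclear groups lie between 0.31 and 0.44, and that of the 13 mitochondrial genes at -0.28.

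The mean log2 value of the 84 nuclear genes was 7.71, 7.94, 7.79 and 7.77 in TNFR2+ Treg replicates 1 to 4 and 7.35, 7.33, 7.29 and 7.65 in TNFR2- Treg replicates 1 to 4. The groups did not overlap, although TNFR2- replicate 4 stood close to TNFR2+ replicate 1. For the mitochondrial genes the means were 11.59, 12.30, 11.73 and 12.15 against 12.04, 12.52, 12.13 and 12.12, and the groups overlapped. Only TNFR2+ replicates 1 and 3 lay below every TNFR2- library, while TNFR2+ replicates 2 and 4 lay among them. The 13 mitochondrial genes together held 3.32 ± 0.57 times the normalized counts of the 84 nuclear genes in TNFR2+ Tregs and 4.98 ± 0.95 times in TNFR2- Tregs (SD, n = 4 each). The highest TNFR2+ ratio was 3.89 and the lowest TNFR2- ratio 4.03. As shares of a library, the nuclear genes took 0.296% ± 0.0079 and 0.225% ± 0.023, without overlap, and the mitochondrial genes 0.985% ± 0.19 and 1.11% ± 0.13, with overlap (SD, n = 4 each). The summed normalized counts of the nuclear genes did overlap, at 27538 to 31533 in TNFR2+ and 22916 to 29157 in TNFR2- Tregs. The library totals behind the shares differed without overlap, at 9576920 to 10295230 in TNFR2+ and 10483290 to 11492760 in TNFR2- Tregs. Among the nuclear subunits the library means of complexes I and II did not overlap between the groups, and those of complexes III, IV and V did. No p-value is given for such means, since the members were chosen with earlier results known.

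**Figure D2:**
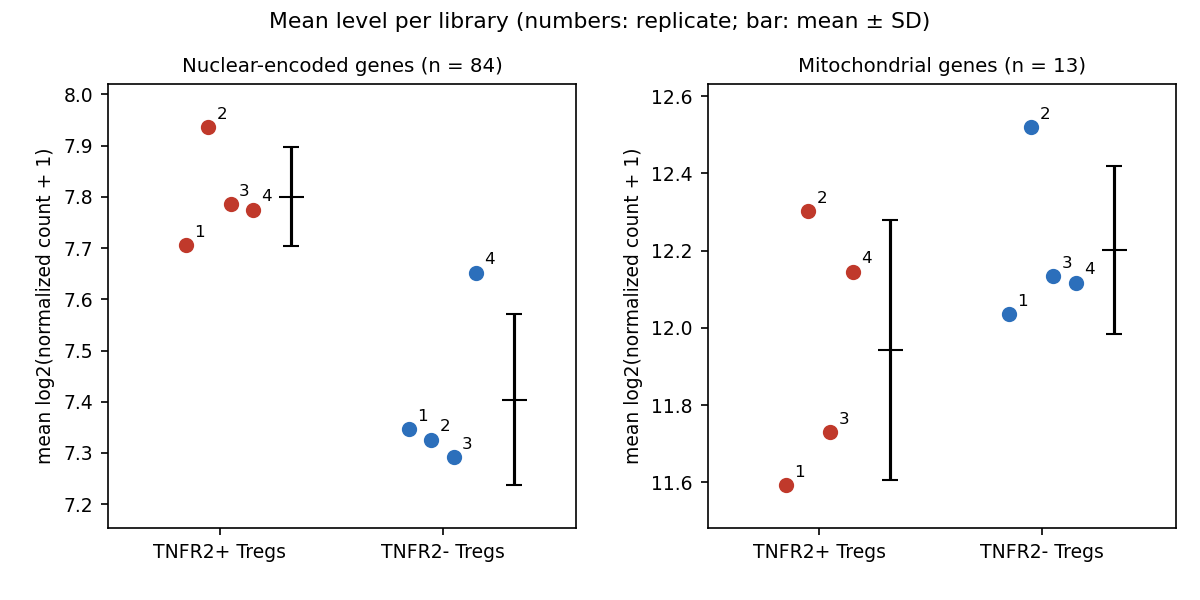
Mean log2(normalized count + 1) per library of the 84 nuclear genes (left) and the 13 mitochondrial genes (right), with replicate numbers and the mean ± SD of 4 libraries. The vertical axes do not start at 0. Nuclear means span 7.71 to 7.94 for TNFR2+ and 7.29 to 7.65 for TNFR2- libraries, and the mitochondrial means overlap.

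In complex I, the NADH dehydrogenase, 32 of 36 nuclear subunits lay above 0, with a median of 0.35 and a range of -0.21 to 1.47. The 7 nuclear core subunits, which carry the flavin, the iron-sulfur clusters and the quinone site, split 4 above and 3 below 0 with a median of 0.12, whereas 28 of the 29 supernumerary subunits lay above 0 with a median of 0.36. The difference between these groups of genes was not tested. *Ndufa13*, a supernumerary subunit also known as GRIM-19 (chr8:69894180-69902558, GRCm38), stood at 383, 552, 427 and 461 normalized counts in TNFR2+ Tregs and 268, 305, 323 and 308 in TNFR2- Tregs. All 4 TNFR2+ values exceeded the highest TNFR2- value, and the log2 fold change was 0.59 ± 0.18 (SE, adjusted p = 0.0651). *Ndufv2*, a core subunit with an iron-sulfur cluster in the NADH-oxidizing tip, stood at 382, 342, 228 and 413 normalized counts in TNFR2+ Tregs and 178, 155, 252 and 219.5 in TNFR2- Tregs. TNFR2+ replicate 3 fell within the TNFR2- range, and the log2 fold change was 0.75 ± 0.24 (SE, adjusted p = 0.0816). The small supernumerary subunit *Ndufs5* stood at 161, 139, 157 and 101 normalized counts in TNFR2+ Tregs and 31.1, 116, 38.5 and 99.9 in TNFR2- Tregs, and TNFR2- replicates 1 and 3 were far below the others. Its log2 fold change was 1.15 ± 0.43 (SE, adjusted p = 0.125), and that of *Ndufa11*, a membrane-arm subunit, was 1.16 ± 0.45 (SE, adjusted p = 0.138).

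Of the other core subunits of complex I, *Ndufs1*, *Ndufv1* and *Ndufs3* showed differences smaller than the spread between libraries. *Ndufs1*, the largest iron-sulfur subunit, had a log2 fold change of -0.21 ± 0.22 (SE, adjusted p = 0.631), and *Ndufv1*, which binds the flavin and takes electrons from NADH, one of -0.11 ± 0.26 (SE, adjusted p = 0.844). In both genes TNFR2- replicate 3 held the highest value of all libraries, at 589.9 and 448. *Ndufs3* was at -0.14, and the quinone-site subunit *Ndufs7* at 0.31. *Ndufs8*, which carries iron-sulfur clusters towards the quinone site, was at 0.51 ± 0.30 (SE, adjusted p = 0.347), with overlap.

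Of the 8 Ndufaf assembly factors, 7 lay above 0. *Ndufaf1*, which helps to build the membrane arm, stood at 54.8, 36.6, 65.8 and 47.7 normalized counts in TNFR2+ Tregs and 20.4, 23.7, 11.2 and 3.09 in TNFR2- Tregs, without overlap. Its log2 fold change of 2.00 ± 0.63 (SE, adjusted p = 0.0711) was the highest of the nuclear members, at a level among the lowest. *Ndufaf6*, required for an early assembly step, lay at -0.40 ± 0.51 (SE, adjusted p = 0.697), and its libraries overlapped.

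In complex II, succinate dehydrogenase, the membrane anchors *Sdhc* and *Sdhd* had higher log2 fold changes than the catalytic subunits. *Sdhc* (chr1:171127165-171150603), which with *Sdhd* binds ubiquinone and haem, stood at 143, 269, 215 and 236 normalized counts in TNFR2+ Tregs and 109, 99.7, 135 and 109.7 in TNFR2- Tregs. The groups did not overlap, and the log2 fold change of 0.90 ± 0.26 (SE, adjusted p = 0.0546) had the smallest p of any member. *Sdhd* stood at 256, 226, 210.0 and 249.7 normalized counts in TNFR2+ Tregs and 156, 154, 142 and 187 in TNFR2- Tregs, again without overlap, with a log2 fold change of 0.56 ± 0.21 (SE, adjusted p = 0.129). For *Sdhb*, the iron-sulfur subunit, the log2 fold change was 0.32 ± 0.18 (SE, adjusted p = 0.338), with TNFR2- replicate 4 inside the TNFR2+ range. *Sdha*, the flavoprotein that oxidizes succinate, had the highest level of the complex and a log2 fold change of -0.04 ± 0.15 (SE, adjusted p = 0.91), smaller than its spread. The difference between anchors and catalytic subunits was not tested.

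In complex III, the cytochrome bc1 complex, 7 of 8 nuclear subunits lay above 0 with a median of 0.31. *Uqcr10*, a small subunit, stood at 179, 156, 111 and 116 normalized counts in TNFR2+ Tregs and 40, 52.5, 120.0 and 86.9 in TNFR2- Tregs, and TNFR2- replicate 3 lay inside the TNFR2+ range. Its log2 fold change was 0.99 ± 0.37 (SE, adjusted p = 0.124). *Uqcrb*, which lines the quinone-binding region, did not overlap between the groups, with 343 as the lowest TNFR2+ and 337 as the highest TNFR2- normalized count, and a log2 fold change of 0.36 ± 0.19 (SE, adjusted p = 0.281). *Uqcrfs1*, the Rieske iron-sulfur protein, was at 0.10, and the structural core proteins *Uqcrc1* and *Uqcrc2* at -0.06 and 0.34. Among the small subunits, *Uqcrq* was at 0.29, *Uqcr11* at 0.33 and *Uqcrh*, the hinge protein, at 0.01. With single libraries left out, *Uqcrq* ranged from 0.090 to 0.40, *Uqcr11* from 0.092 to 0.75 and *Uqcrc2* from 0.19 to 0.47. *Cyc1*, the cytochrome c1 subunit, lies outside the symbol rule and belonged to the list of electron carriers, with a log2 fold change of 0.70 ± 0.32 (SE, adjusted p = 0.212).

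In complex IV, cytochrome c oxidase, 11 of 12 tested nuclear members lay above 0 with a median of 0.37. *Cox5a*, a regulatory subunit on the matrix side, stood at 125, 216, 193 and 186 normalized counts in TNFR2+ Tregs and 84.5, 80, 89.4 and 131 in TNFR2- Tregs. TNFR2+ replicate 1 and TNFR2- replicate 4 crossed, and the log2 fold change was 0.90 ± 0.28 (SE, adjusted p = 0.0713). *Cox6c* stood at 703, 821, 794 and 812 normalized counts in TNFR2+ Tregs and 583, 482, 587 and 783 in TNFR2- Tregs, with only TNFR2- replicate 4 inside the TNFR2+ range, and a log2 fold change of 0.38 ± 0.17 (SE, adjusted p = 0.193). *Cox8a* and *Cox5b* followed at 0.41 and 0.36, and *Cox7b* at 0.63 ± 0.30 (SE, adjusted p = 0.238). *Cox7a2l*, a supercomplex factor that joins complexes III and IV and is counted here with complex IV, was the one member of this group below 0. It stood at 580.3, 726, 659 and 906 normalized counts in TNFR2+ Tregs and 669, 1002, 762 and 1271 in TNFR2- Tregs, with overlap and a log2 fold change of -0.34 ± 0.21 (SE, adjusted p = 0.362).

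The isoforms of complex IV measured here were mainly the ubiquitous ones. *Cox4i1* lay at a log2 fold change of 0.22, *Cox6a1* at 0.04, *Cox6b1* at 0.43, *Cox7a2* at 0.41 and *Ndufa4*, a complex IV subunit despite its symbol, at 0.23. *Cox6b2*, the testis isoform, was at 12.3, 0, 0 and 0 normalized counts in TNFR2+ Tregs and 5.71, 0, 0 and 2.28 in TNFR2- Tregs. *Cox4i2*, *Cox6a2*, *Cox7a1*, *Cox7b2*, *Cox8b*, *Cox8c* and *Ndufa4l2* were not in the table.

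In complex V, the ATP synthase, 15 of 16 subunits lay above 0 with a median of 0.39. All 5 subunits of the catalytic F1 head and its central shaft did, with a median of 0.41. *Atp5c1*, the gamma subunit of the shaft, stood at 880.2, 934, 851 and 954 normalized counts in TNFR2+ Tregs and 669, 528, 497 and 826 in TNFR2- Tregs. The groups did not overlap, since the highest TNFR2- library was below the lowest TNFR2+ library, and the log2 fold change was 0.55 ± 0.17 (SE, adjusted p = 0.0722). *Atp5d*, the delta subunit, stood at 787, 839, 913 and 695 normalized counts in TNFR2+ Tregs and 625, 560.1, 569 and 669 in TNFR2- Tregs, also without overlap, with a log2 fold change of 0.41 ± 0.15 (SE, adjusted p = 0.111). The alpha subunit *Atp5a1* stood at 3424, 3687, 3278 and 3151 normalized counts in TNFR2+ Tregs and 2403, 2711, 2426 and 3239 in TNFR2- Tregs, where TNFR2- replicate 4 passed the lowest TNFR2+ library, and its log2 fold change was 0.34 ± 0.12 (SE, adjusted p = 0.112). The catalytic beta subunit *Atp5b* was at 0.21 and the epsilon subunit *Atp5e* at 0.54, both with overlap.

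The 7 subunits of the membrane part of complex V all lay above 0, with a median of 0.47, and the 4 of the peripheral stalk had a median of 0.25. *Atp5g1*, *Atp5g2* and *Atp5g3* encode the same mature c subunit of the rotating ring. Their log2 fold changes were 0.38, 0.48 and 0.47 ± 0.22 (SE, adjusted p = 0.225), and only *Atp5g3* did not overlap between the groups. With single libraries left out, *Atp5g2* ranged from 0.26 to 0.70. The means in TNFR2+ and TNFR2- Tregs were 273 and 214 normalized counts for *Atp5g1*, 283 and 212 for *Atp5g2*, and 293 and 216 for *Atp5g3*. Per kb of transcript, *Atp5g2* stood at 415 and 311 and *Atp5g3* at 408 and 301, while *Atp5g1* stood at 102 and 80.1. That lower value rests on a median annotated length of 2675.5 bases for *Atp5g1*. An annotated transcript of it has 691 bases, so the values per kb do not rank these genes. *Atp5l*, a dimer-forming subunit, was at 0.49 ± 0.23 (SE, adjusted p = 0.235). *Atp5o*, the stalk subunit that contacts the F1 head, was the one below 0, at -0.10 ± 0.19 (SE, adjusted p = 0.811).

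**Figure D3:**
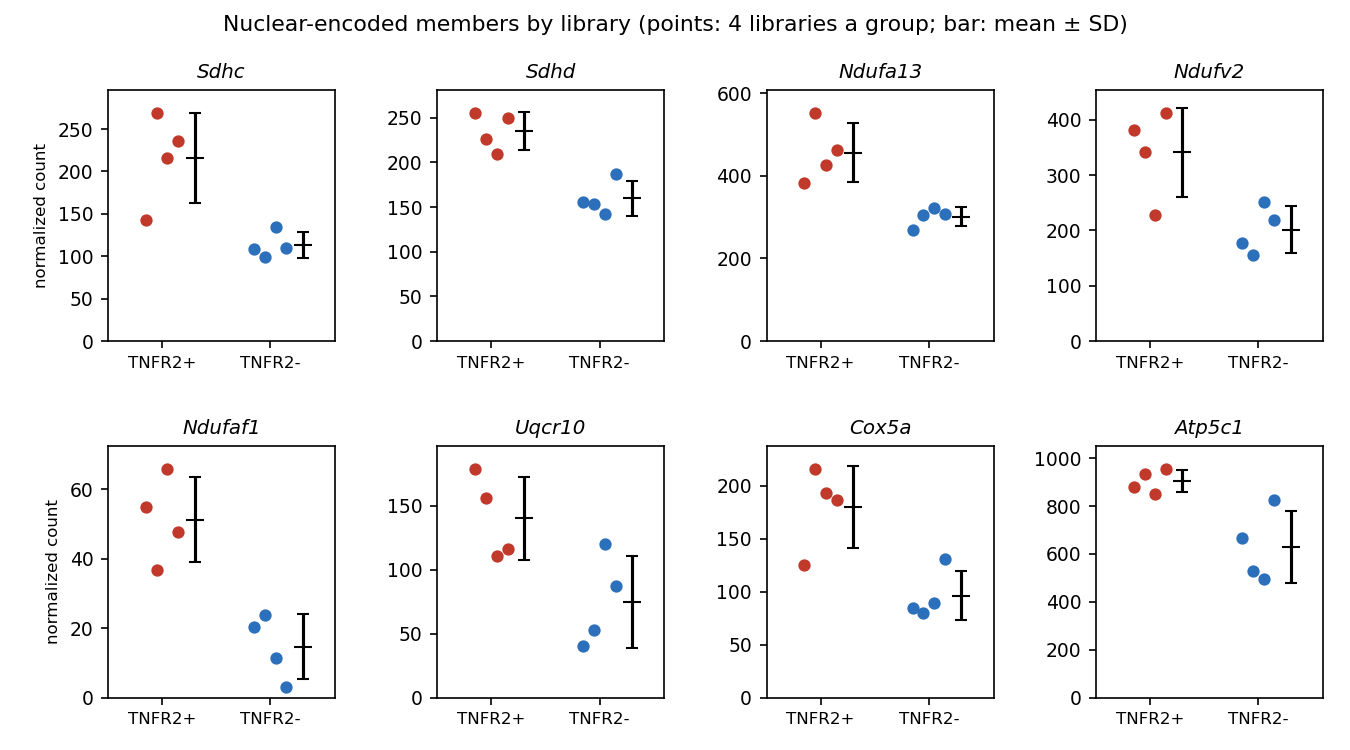
Normalized counts per library (vertical axes from 0) of 8 nuclear members with small p-values in each complex, with the mean ± SD of 4 libraries beside the points. Sdhc, Sdhd, Ndufa13, Ndufaf1 and Atp5c1 do not overlap between the groups, and Ndufv2, Uqcr10 and Cox5a do, in each case with 1 or 2 libraries that cross.

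Transcripts of nuclear members can be copied as pseudogenes. Near-identical copies in the table were found for *Atp5c1*, *Atp5g1*, *Atp5h*, *Atp5l*, *Ndufa12*, *Ndufb11* and *Ndufs5*, and the split of reads between a gene and its copy is uncertain. Adding the copies moved the log2 fold change of *Ndufs5* to 1.07 (adjusted p = 0.127) and that of *Atp5c1* to 0.53 (adjusted p = 0.0743). The 77 nuclear genes tested without such copies had a median of 0.35. The pseudogene *Ndufb4c*, a copy of a complex I gene that the symbol rule also found, stood at 16.9, 30.3, 33.1 and 32.2 normalized counts in TNFR2+ Tregs and 37.2, 111, 67.8 and 42.8 in TNFR2- Tregs, lower in TNFR2+ Tregs without overlap, with a log2 fold change of -1.09 ± 0.47 (SE, adjusted p = 0.189). *Ndufa11b* and *Atp5s* stayed under the mean of 10.

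Promoters of nuclear respiratory genes are known for sites of the factors NRF1, GABP (an ETS factor) and YY1. In the RefSeq tables (GRCm38.p6) 72 nuclear members matched, with 77 promoters of 300 bases, from 250 before to 50 after the start. The letters GCGCA and GCGC with any 1 base between them for NRF1, CCGGAAG for ETS and AAGATGGC for YY1 were searched on both strands, with overlapping matches of different motifs allowed. NRF1 letters were in 26.0% of the members' promoters, against 4.6% of all promoters and 10.1% of those of tested protein-coding genes. ETS letters were in 23.4%, against 8.86% and 18.3%, and YY1 letters in 14.3%, against 2.75% and 4.57%. At least 1 of the 3 was in 54.5%, against 14.7% and 29.3%. The median log2 fold change was 0.44 in the 19 tested members with NRF1 letters and 0.37 in the 52 without, and 0.33 in the 41 with any of the 3 and 0.41 in the 30 without. A match is a description of letters, and binding was not measured.

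The 100 bases before the start are printed for *Ndufaf1* (chr2:119662835-119662934, minus strand), *Ndufs5* (chr4:123718187-123718286, minus strand), *Sdhd* (chr9:50603850-50603949, minus strand) and *Ndufa11* (chr17:56717662-56717761, plus strand), which had small p-values and hold a motif there, and for *Atp5j* (chr16:84834977-84835076, minus strand), chosen because its promoter holds ETS and YY1 letters. Capitals mark the motif letters, 5′ to 3′ along the gene.
Ndufaf1: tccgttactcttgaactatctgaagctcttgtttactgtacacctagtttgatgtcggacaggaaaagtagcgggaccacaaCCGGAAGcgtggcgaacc
Ndufs5: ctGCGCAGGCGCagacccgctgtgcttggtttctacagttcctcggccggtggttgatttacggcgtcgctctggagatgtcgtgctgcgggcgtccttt
Sdhd: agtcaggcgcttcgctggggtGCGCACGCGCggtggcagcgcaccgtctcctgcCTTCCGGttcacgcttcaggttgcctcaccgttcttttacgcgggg
Ndufa11: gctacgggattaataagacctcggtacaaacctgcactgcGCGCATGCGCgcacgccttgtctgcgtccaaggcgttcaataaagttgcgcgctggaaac
Atp5j: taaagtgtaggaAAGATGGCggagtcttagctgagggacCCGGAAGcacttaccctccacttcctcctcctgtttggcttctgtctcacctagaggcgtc
*Ndufaf1* holds ETS letters from -18 to -12, and *Ndufs5* NRF1 letters from -98 to -89, counted from the base before the start. In *Sdhd* NRF1 letters lie upstream of ETS letters on the other strand, and in *Ndufa11* NRF1 letters lie from -60 to -51. Other members with small p-values, among them *Ndufa13*, *Cox5a* and *Ndufv2*, hold no motif letters in their promoters. *Atp5c1*, which holds NRF1 letters, is not printed.

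The 13 mitochondrial protein genes had log2 fold changes below 0 in all but *mt-Nd6*, and each of them overlapped between the groups, and under at least 1 other scaling or the length centring *mt-Cytb*, *mt-Co3* and *mt-Nd3* turned above 0 and *mt-Nd6* below it. Mt-Co1, the catalytic core of complex IV (chrM:5328-6872), stood at 28083, 41996, 30951 and 36929 normalized counts in TNFR2+ Tregs and 39687, 51508, 38881 and 41703 in TNFR2- Tregs. TNFR2+ replicate 2 lay above 3 of the TNFR2- libraries, and the log2 fold change was -0.32 ± 0.13 (SE, adjusted p = 0.156). Mt-Atp6, the proton-channel subunit of complex V (chrM:7927-8607), stood at 10442, 13786, 5137 and 14824 normalized counts in TNFR2+ Tregs and 14815, 19164, 13368 and 16158 in TNFR2- Tregs, and TNFR2+ replicate 3 was far below the rest. Its log2 fold change was -0.62 ± 0.26 (SE, adjusted p = 0.172). Mt-Co2, which takes electrons from cytochrome c, stood at 2533, 7892, 5759 and 7326 normalized counts in TNFR2+ Tregs and 6368, 9450.1, 7779.5 and 6956 in TNFR2- Tregs, with TNFR2+ replicate 1 far below the rest, and its log2 fold change was -0.49 ± 0.28 (SE, adjusted p = 0.331).

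The remaining mitochondrial genes lay within a narrow range. The complex I subunits *mt-Nd1*, *mt-Nd2*, *mt-Nd4*, *mt-Nd4l* and *mt-Nd5* had log2 fold changes of -0.29, -0.28, -0.23, -0.32 and -0.28. Mt-Cytb, the cytochrome b of complex III, lay at -0.20 and *mt-Atp8* at -0.30. Nearest to 0 were *mt-Nd3* at -0.03 and *mt-Co3* at -0.04. Mt-Nd6, a complex I subunit and the one protein gene read from the light strand, stood at 782, 1003, 826 and 1118 normalized counts in TNFR2+ Tregs and 713, 1230.1, 1209 and 599.7 in TNFR2- Tregs, with a log2 fold change of 0.05 ± 0.23 (SE, adjusted p = 0.938). Per kb, *mt-Co1* was the highest at 22323 and 27796 normalized counts in TNFR2+ and TNFR2- Tregs and *mt-Nd3* the lowest at 1211 and 1221. The genes lie on shared long transcripts, so they are not independent of each other. The mitochondrial ribosomal RNAs, which are no members, took 9.48% ± 1.1 and 10.02% ± 0.54 of the libraries (SD, n = 4 each).

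**Figure D4:**
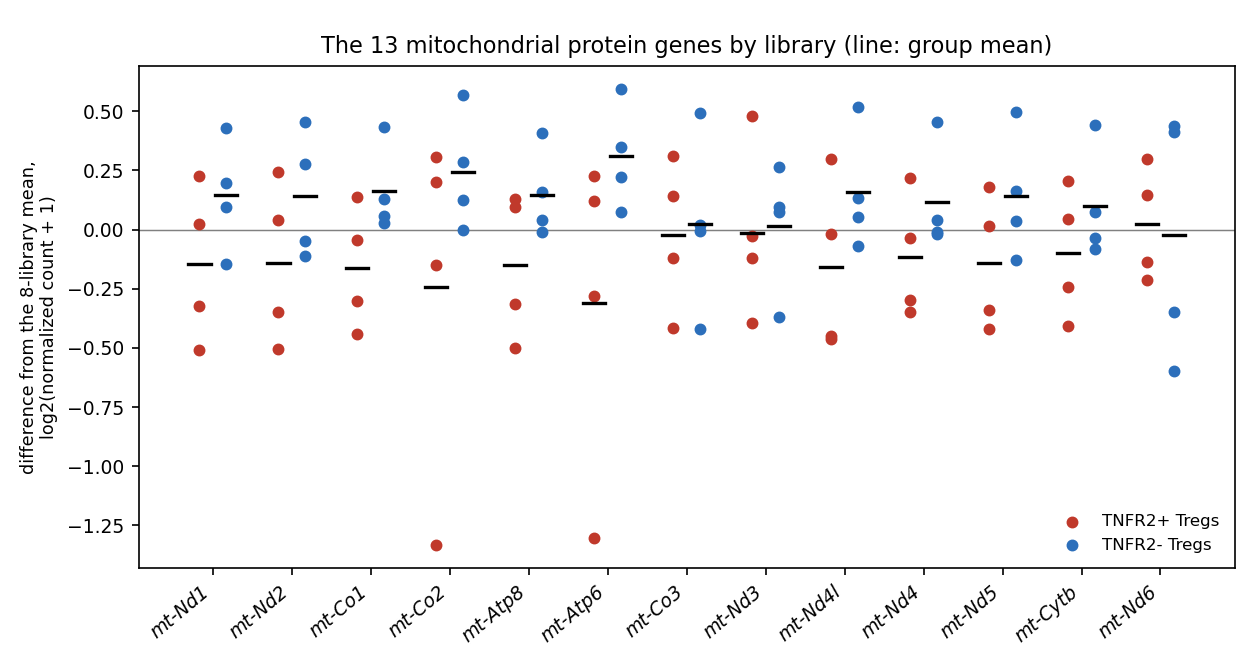
Log2(normalized count + 1) of each mitochondrial protein gene, as the difference from its mean over the 8 libraries, for TNFR2+ (red) and TNFR2- (blue) Tregs with group means as lines. All 13 genes overlap between the groups, and single TNFR2+ libraries lie far below the others for mt-Co2 and mt-Atp6.

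Without TNFR2+ replicate 3 the log2 fold change of *mt-Atp6* was -0.29, and without TNFR2+ replicate 1 that of *mt-Co2* was -0.12. The low libraries of *mt-Atp6* and *mt-Co2* were those in which a nuclear copy was high. A stretch of chromosome 1 holds copies of several mitochondrial genes, and those of *mt-Atp6* (*Gm10925*, 678 bases), *mt-Co2* (*Gm28661*, 681 bases) and *mt-Co3* (*Gm28437*, 783 bases) had 0 differences over the bases shared. The first 90 bases are printed for *mt-Atp6* (chrM:7927-8016, plus strand) and *Gm10925* (chr1:24614562-24614651, minus strand), which reads cannot tell apart, and positions 34 to 123 for *mt-Co1* (chrM:5361-5450, plus strand) and its copy *Gm13340* (chr2:22589525-22589614, minus strand), which has 37 differences over 1545 bases. Capitals mark the bases that differ within a pair.
mt-Atp6: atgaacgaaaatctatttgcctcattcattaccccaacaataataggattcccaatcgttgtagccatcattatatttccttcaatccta
Gm10925: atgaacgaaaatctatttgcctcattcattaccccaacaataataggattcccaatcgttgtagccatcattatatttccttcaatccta
mt-Co1: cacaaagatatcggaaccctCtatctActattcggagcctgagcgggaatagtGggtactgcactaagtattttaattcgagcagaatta
Gm13340: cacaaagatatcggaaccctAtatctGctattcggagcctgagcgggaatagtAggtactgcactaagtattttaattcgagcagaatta
The 90 bases of *mt-Atp6* and *Gm10925* are the same letters, and the printed stretch of *mt-Co1* differs from *Gm13340* at 3 bases.

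*Gm10925* was at 391, 3751, 7281 and 1199.9 in TNFR2+ Tregs and 788, 2006, 2149 and 4095 in TNFR2- Tregs, highest in TNFR2+ replicate 3, where *mt-Atp6* was lowest. *Gm28661* was at 2585, 374, 86.7 and 467 in TNFR2+ Tregs and 577, 152, 0 and 0 in TNFR2- Tregs, highest in TNFR2+ replicate 1, where *mt-Co2* was lowest. *Gm28437* was at 908, 757, 359 and 384 in TNFR2+ Tregs and 2061, 303, 412 and 426 in TNFR2- Tregs, and its highest library was TNFR2- replicate 1. With the copy added to the gene, the log2 fold change was -0.36 (adjusted p = 0.184) for *mt-Atp6*, -0.23 (adjusted p = 0.436) for *mt-Co2* and -0.11 (adjusted p = 0.701) for *mt-Co3*. The sum moved *mt-Atp6* and *mt-Co2* towards the other mitochondrial genes, and *mt-Co1*, whose diverged copy stayed at or under 2.91 in every library, kept its value.

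**Figure D5:**
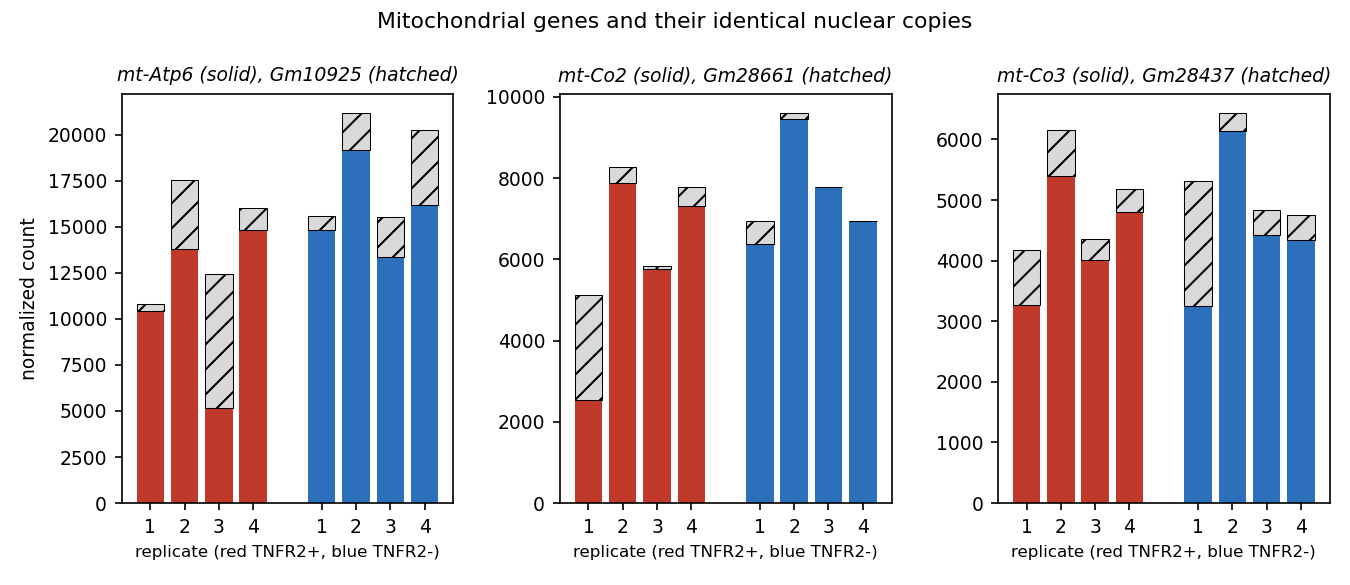
Normalized counts per library of mt-Atp6, mt-Co2 and mt-Co3 (solid, red TNFR2+ and blue TNFR2- Tregs) with the identical chromosome 1 copy stacked on top (hatched). The copy takes 7281 beside 5137 for mt-Atp6 in TNFR2+ replicate 3 and 2585 beside 2533 for mt-Co2 in TNFR2+ replicate 1.

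Other genes of the pathway were followed as lists. Of 16 complex I assembly genes, which include the 8 Ndufaf members, 11 lay above 0 with a median of 0.23, and of 35 tested assembly genes for complexes II to V, 21 did with a median of 0.20. In both lists 0 were called by limma, against 7.91% of all genes. With 0.05 set on the unadjusted p, which 12.3% of all genes passed higher and 10.7% lower, complex I assembly had 1 gene higher and 1 lower, and complexes II to V had 3 higher (8.57%) and 0 lower. Of 21 electron carriers and genes for their synthesis, 11 lay above 0, 4 (19.0%) were higher and 1 was lower at the unadjusted p, and 1 fell past the adjusted threshold. That was *Gpd2*, the glycerol phosphate dehydrogenase that feeds ubiquinone, at 117, 59.4, 85.3 and 56.2 normalized counts in TNFR2+ Tregs and 188, 161, 160.4 and 259 in TNFR2- Tregs, with a log2 fold change of -1.30 ± 0.31 (SE, adjusted p = 0.0214). *Cycs*, cytochrome c itself, was at -0.18. Of 29 genes for the expression and upkeep of mitochondrial DNA, 15 lay above 0, 1 was higher and 2 were lower at the unadjusted p, and 1 was called. *Polg2*, the accessory subunit of the mitochondrial DNA polymerase, fell, at 367, 488, 495 and 449 normalized counts in TNFR2+ Tregs and 922, 1042, 539 and 642 in TNFR2- Tregs, with a log2 fold change of -0.76 ± 0.21 (SE, adjusted p = 0.0451). The higher one was *Slirp*, which stabilizes mitochondrial messenger RNA, whose groups did not overlap, at 2.42 on the log2 scale (adjusted p = 0.0574), and the other lower one was *Polg*, the catalytic subunit of the polymerase, at -0.46 (adjusted p = 0.078). *Tfam*, which packages and transcribes mitochondrial DNA, was at -0.08.

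Of 12 transcriptional regulators of respiratory genes, 3 (25%) lay above 0, where 49.3% of all genes did, with a median of -0.21. By limma 0 were called, against 7.91% of all genes. At the unadjusted p 0 were higher, against 12.3% of all genes, and 1 (8.33%) was lower, against 10.7%. *Nrf1*, *Gabpa*, *Gabpb1* and *Yy1*, which encode the factors whose motifs were searched, were at -0.19, -0.12, 0.37 and 0.12. Of 22 TCA cycle genes, 13 (59.1%) lay above 0 with a median of 0.10, and 0 were called by limma. At the unadjusted p 2 (9.09%) were higher and 0 lower. All 9 tested genes of the adenine nucleotide and phosphate carrier list lay above 0 with a median of 0.38. At the unadjusted p 5 (55.6%) were higher, against 12.3% of all genes. Past the adjusted threshold 1 rose, as 4.52% of all genes did. *Slc25a4*, which exchanges ADP and ATP across the inner membrane, stood at 561, 591, 595 and 619 normalized counts in TNFR2+ Tregs and 245, 396, 376 and 375 in TNFR2- Tregs, without overlap and with a log2 fold change of 0.79 ± 0.19 (SE, adjusted p = 0.0199). Its partner *Slc25a3*, the phosphate carrier, was at 0.38 ± 0.11 (SE, adjusted p = 0.0527). *Atpif1*, the inhibitor of complex V, falls outside the symbol rule and was chosen after its values were seen. It stood at 422, 609, 500.7 and 423 normalized counts in TNFR2+ Tregs and 338, 221, 272 and 284 in TNFR2- Tregs, and rose with a log2 fold change of 0.81 ± 0.20 (SE, adjusted p = 0.0246).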

How the data were processed

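RNA-seq libraries of TNFR2+ and TNFR2- Tregs (4 each) were compared. The authors trimmed reads, quantified transcripts with Salmon 1.3.0 on the Ensembl GRCm38 transcriptome and normalized genes with DESeq2 1.28. The deposited values are this normalized signal per gene (normalized counts, not whole reads), and the step from transcripts to genes is not given in the sources used here. Salmon shares reads between near-identical sequences, so genes with copies are uncertain. A library strand setting is not given either, so overlapping and antisense genes may share reads.

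Symbols and lengths came from GENCODE for GRCm38 (matched for 20008 of 20172 identifiers). The length of a gene was the median over its annotated protein-coding transcripts, or over all its transcripts where it had none. It was not matched to the transcripts expressed, which limits values per kb, the split at 1 kb and the length centring. The scale was log2(normalized count + 1), which understates fold changes of low genes. Genes with a mean of at least 10 (13990) were tested with limma 3.58.1 in R 4.3.3, with an intensity trend, two-sided, and Benjamini-Hochberg adjustment over all genes at 0.05. Where low values lay on whole multiples of a step, depth was estimated from it, but reads were not recovered for most genes. Depth, 9100000 to 12110000 reads, covers counting error only. Copies were found with blastn 2.17.0 (95% identity over at least 50% of a transcript). The procedure was tested on simulated data with planted 4-fold changes, and smaller changes, as in most members, were not simulated. Plots were drawn with matplotlib 3.10.9.

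Named were the 13 mitochondrial genes, in each complex the 5 smallest p-values, the highest mean and the 2 lowest fold changes, core and F1 subunits, isoform groups, and list genes past the threshold. The values of 1 core subunit are not reported here. Other names were chosen after seeing their values: *Atpif1*, the promoter examples, the copies, *Cyc1*, *Cycs*, *Tfam*, *Nrf1*, *Gabpa*, *Gabpb1*, *Yy1*, *Slirp*, *Polg* and *Slc25a3*. Members and lists (assembly of complex I and of complexes II to V, electron carriers, mitochondrial DNA expression, transcriptional regulators, TCA cycle, nucleotide and phosphate carriers, and marker lists) were chosen with earlier results of these data known. Alternatives covered the pseudocount, filter, trend, library weights, scaling, gene types, a replicate block, single libraries left out, added copies and, chosen after seeing the data, centring by transcript length.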

Additional observations from a re-analysis of the deposited data

Results flagged for a closer look

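In 5 of 118 groups of 4 libraries examined, 1 library stood apart from the other 3 by Dixon's ratio of gap to range. Chance flags about 1 in 20 groups, so this number is no more than chance gives. The mean log2 value of the nuclear genes in TNFR2- replicate 4 (ratio 0.849) lay above the other TNFR2- libraries, which bears on the nuclear comparison. The other ratios were 0.875 for *mt-Nd4* in TNFR2- replicate 2, 0.875 for *Uqcrc1* in TNFR2- replicate 4, 0.862 for *Uqcrh* in TNFR2+ replicate 2 and 0.888 for *Cox4i1* in TNFR2+ replicate 1.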

How the results depend on the processing

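The signs of both medians held under every alternative run. The nuclear median lay between 0.27 (length centring) and 0.45 (a common sum over genes other than mitochondrial genes, *Gm26917* and *Gm42418*) and between 0.31 and 0.42 with single libraries left out. The mitochondrial median lay between -0.37 (common median) and -0.10 (quantile normalization) and between -0.39 and -0.16 with single libraries left out. No scaling moved the median of all genes by more than 0.1, but the common sum made 69.97% of calls higher and the common median 45.1%, against 57.2%.

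The number of nuclear members called, 0 as reported, was 2 (*Ndufa13* and *Sdhc*) among genes with a mean of at least 50, 3 (*Ndufv2*, *Ndufa13* and *Sdhc*) with library weights, 1 (*Atp5a1*) with quantile normalization, 5 (*Cox5a*, *Atp5a1*, *Atp5c1*, *Ndufa13* and *Sdhc*) with the common sum and 1 (*Sdhc*) among protein-coding genes only. With single libraries left out it was 0 to 3: *Sdhc* without TNFR2+ replicate 1, *Ndufv2* without TNFR2+ replicate 3, *Sdhc* and *Uqcr10* without TNFR2- replicate 3, and *Atp5a1*, *Atp5c1* and *Cox7b* without TNFR2- replicate 4. All were higher in TNFR2+ Tregs. Genes called in all, 1107, became 465 without the intensity trend and 642 to 1301 with single libraries left out, where 722, 642, 690 and 707 were without TNFR2+ replicates 1, 2 and 3 and TNFR2- replicate 2. The cause was not tested. Pseudocounts of 0.5 and 5 and no filter on the mean left 0 members called.

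Same-numbered libraries did not deviate together (correlations of -0.04 to 0.00), so the numbers were not taken to pair the samples. With the replicate number as a block, 1183 genes, 0 nuclear members and 2 mitochondrial members (*mt-Co1* and *mt-Atp6*) were called, and 7 mitochondrial genes against 2 were lower at an unadjusted p under 0.05. The correlations covered all genes, and the mitochondrial mean was highest in replicate 2 of both groups.

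Among single genes near 0, the sign of the log2 fold change turned with library weights for *mt-Co3* at 0.00127 and *Cox6a1* at -0.013. It turned with quantile normalization for *mt-Cytb* at 0.087, *mt-Co3* at 0.070, *Sdha* at 0.00932, *Uqcrh* at -0.043 and *Cox6a1* at -0.013. It turned with the common sum for *mt-Nd3* at 0.059, *mt-Co3* at 0.046, *Sdha* at 0.047 and *Uqcrc1* at 0.030. It turned with the common median for *mt-Nd6* at -0.035, *Uqcrh* at -0.074 and *Cox6a1* at -0.040. It turned with length centring for *mt-Nd3* at 0.14, *mt-Nd6* at -0.055, *Uqcrfs1* at -0.035, *Uqcrh* at -0.078 and *Cox6a1* at -0.027. With single libraries left out, it crossed 0 over ranges of -0.19 to 0.097 for *mt-Nd3*, -0.14 to 0.20 for *mt-Nd6*, -0.19 to 0.11 for *mt-Co3*, -0.35 to 0.022 for *Ndufs3*, -0.29 to 0.11 for *Ndufv1*, -0.11 to 0.034 for *Sdha*, -0.14 to 0.056 for *Uqcrc1*, -0.024 to 0.17 for *Uqcrfs1*, -0.16 to 0.14 for *Uqcrh*, -0.19 to 0.17 for *Cox6a1* and -0.017 to 0.61 for *Ndufa4*. None of these genes was called in the comparison as reported.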
